A study of Mus musculus with 11 samples.

Results

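The 35 genes described here encode the enzymes and transporters that carry glucose through glycolysis to lactate, through the pentose phosphate pathway and in and out of glycogen. They were chosen by name from the textbook pathways, with earlier results of these data known. All 35 were matched to an Ensembl identifier among the 51912 genes of the count table. All 35 passed the filter on low counts that left 15703 genes to test. RNA sequencing had been performed on lineage-negative bone marrow of C57BL/6 mice in an experiment on the order in which a pair of leukemia oncogenes is acquired. CSF3R is the receptor for granulocyte colony-stimulating factor, and its T618I mutation activates it without ligand. CEBPA is a transcription factor that granulocyte differentiation depends on, and V314VW is a mutation in its C-terminal part.

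All cells were marked by a pair of retroviral vectors, 1 that expresses its insert from the start (MIG, with GFP) and 1 that does so only after Cre recombination (idsRed), and by the study's description they came from Rosa26 ERT2-Cre mice. After sorting for both colours, every group was cultured for 48 h with 4-hydroxytamoxifen, which switches Cre on. In CSF3R-only (n = 4), MIG carried CSF3R T618I and idsRed was empty. In CSF3R-first (n = 3), MIG carried CSF3R T618I and idsRed carried CEBPA V314VW. In CEBPA-first (n = 4), MIG carried CEBPA V314VW and idsRed carried CSF3R T618I. All groups therefore carried CSF3R T618I, and no sample was without an oncogene. Expression from a retroviral vector is ectopic, and the cells were pools of many transduced cells. The labels give no age and no animal for a sample, so p-values measure the spread between these samples, which may be technical.

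Glycolysis splits glucose into pyruvate, which is either reduced to lactate and exported or enters mitochondria through pyruvate dehydrogenase. The pentose phosphate pathway branches off after the first step, and its oxidative arm makes NADPH while its non-oxidative arm exchanges sugars with glycolysis and supplies ribose for nucleotides. Mature neutrophils are known for a high reliance on glycolysis, for glycogen stores and for NADPH that feeds the oxidative burst, while dividing progenitor cells use glycolysis and ribose for growth.

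Libraries held 47905747 to 72268346 counts. Levels are given as CPM, counts scaled to library size with TMM factors, and differences as log2 fold changes with their standard error and the adjusted p of edgeR's quasi-likelihood test. A gene is called at an adjusted p under 0.05. Because RNA came from pooled cells, fewer cells of a type and less RNA per cell cannot be told apart. Sums over most marker lists of blood cell types moved with the groups. The 15 neutrophil maturation genes summed to 28178 to 34736 CPM in the CSF3R-only samples, 15078 to 26396 CPM with CSF3R first and 6604 to 8807 CPM with CEBPA first, and CEBPA-first was called below CSF3R-only for all 15. The 11 monocyte and macrophage genes summed to 3680 to 4526, 1909 to 3474 and 1112 to 1634 CPM in the same order, with 10 lower and 1 higher. The 15 S phase genes summed to 2207 to 2806, 3510 to 4230 and 4734 to 5519 CPM, and all 15 were higher, and the 12 genes of G2 and M phase to 1833 to 2078, 2548 to 2936 and 3069 to 3240.5 CPM. The 5 neutrophil precursor genes summed to 2860 to 3499, 4777 to 5556 and 6299.7 to 6757 CPM, and the 8 megakaryocyte genes to 944 to 1281, 353 to 556 and 114 to 159 CPM. The 6 eosinophil genes summed to 225 to 336, 55.6 to 128 and 28.1 to 34.5 CPM and the 10 erythroid genes to 319 to 490.5, 147 to 464 and 67.1 to 98.6 CPM, with a wide spread within CSF3R-first. CSF3R-first and CEBPA-first overlapped for the 10 mast cell and basophil genes (1680.5 to 2612 CPM in CSF3R-only, 1079 to 1335 and 1229 to 1661 CPM) and the 10 stem and progenitor genes (540.4 to 779, 479.9 to 537 and 499 to 529 CPM). Members of these lists went both ways in CEBPA-first against CSF3R-only, with 6 stem and progenitor genes higher and 4 lower, and 1 of the 9 tested mast cell and basophil genes higher and 5 lower. The 6 dendritic cell genes summed to 62.2 to 86.2, 38.6 to 62.7 and 26.2 to 41.2 CPM. The 6 B cell genes summed to 3.26 to 6.81 CPM over all samples, mostly from Cd79b, which was at 3.42 ± 0.587 CPM in CSF3R-only and 6.06 ± 0.482 CPM in CEBPA-first (SD, n = 4 each), while Pax5 was at or below 0.02 CPM. The 8 T and NK cell genes summed to 43.7 to 134 CPM, mostly from Nkg7, while Cd3e had no count in any library. The part of cell composition in the results below was not tested.

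By level per length, the members spanned a wide range. Ldha, the lactate dehydrogenase subunit that favours lactate production, was at 1904 CPM per kb of its longest coding transcript over all samples, and it ranked first of the 35. Aldoa, Gapdh, Pkm and Eno1, which encode aldolase, glyceraldehyde phosphate dehydrogenase, pyruvate kinase and enolase, followed at 1440.5, 1423, 1245 and 1119 CPM per kb. With the union of exons as the length, Ldha and Aldoa kept their ranks, and Pkm came before Gapdh. The lowest per kb of longest coding transcript were Pfkm, Eno3 and Ldhb, at 5.58, 2.37 and 0.55 CPM per kb. With the union of exons, Rpia (2.43 CPM per kb) came below Pfkm (4.81 CPM per kb). The 35 members together took 2.26% ± 0.0816 of the counts with CSF3R alone (SD, n = 4), 2.34% ± 0.231 with CSF3R first (SD, n = 3) and 2.35% ± 0.236 with CEBPA first (SD, n = 4), and the ranges of the groups overlapped.

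Within that total, the parts of the pathway took different shares. The pyruvate and lactate genes took 0.381% ± 0.036 of counts with CSF3R alone (SD, n = 4), 0.464% ± 0.0444 with CSF3R first (SD, n = 3) and 0.542% ± 0.0536 with CEBPA first (SD, n = 4). The oxidative pentose phosphate genes took 0.206% ± 0.0158, 0.199% ± 0.0187 and 0.149% ± 0.00537, and the glycogen genes 0.0993% ± 0.00645, 0.0644% ± 0.0128 and 0.0392% ± 0.00674, in the same order. Ldha made up most of the pyruvate and lactate share. In CEBPA-first against CSF3R-only, 3 of those 6 genes were called higher and 3 lower, against 35.4% and 36.6% of all tested genes. Lower glycolysis took 0.785% ± 0.0342, 0.810% ± 0.0884 and 0.814% ± 0.0993, and upper glycolysis ranged from 0.452% to 0.526%, 0.463% to 0.594% and 0.495% to 0.647%. The ranges of the groups overlapped for both. Glucose entry and phosphorylation took 0.120%, 0.114% and 0.107%, with overlapping ranges (0.112% to 0.124%, 0.103% to 0.122% and 0.0996% to 0.120%). The non-oxidative pentose phosphate genes took 0.152%, 0.140% and 0.128% and fructose 2,6-bisphosphate control 0.0169%, 0.0123% and 0.00713%. These shares carry no test.

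**Figure D1:**
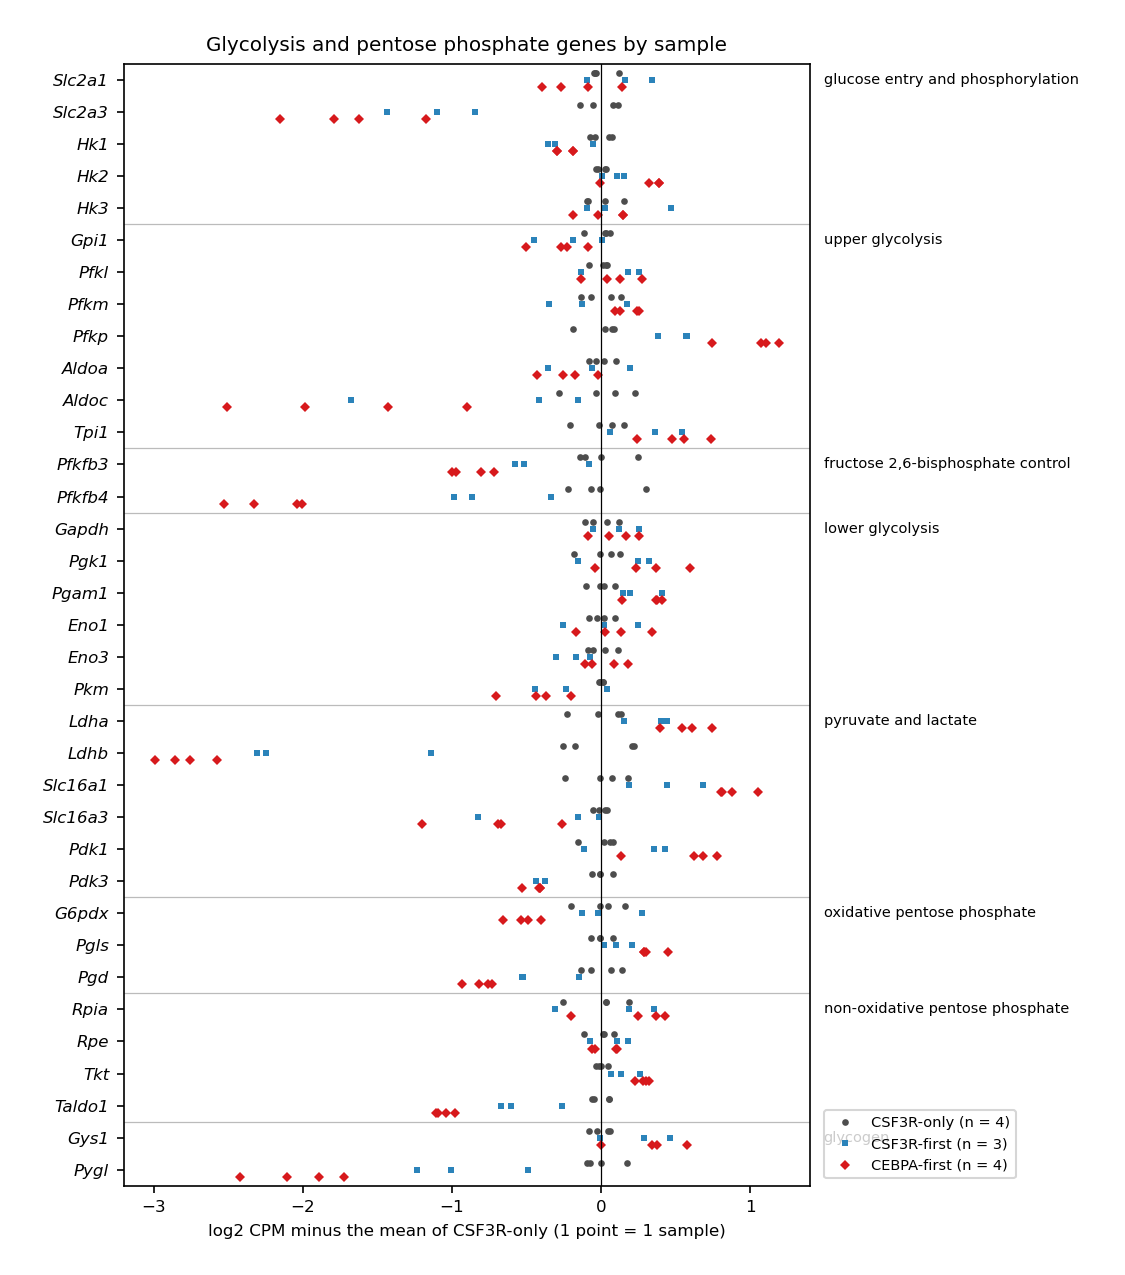
Level of each of the 35 genes in each of the 11 samples, on the x axis as log2 CPM minus the mean of CSF3R-only, with genes on the y axis ordered by role and 1 point per sample. CEBPA-first samples (red) lie right of the CSF3R-only samples (grey) for Pfkp, Slc16a1 and Ldha and left of them for Slc2a3, Aldoc, Pfkfb4, Ldhb, Taldo1 and Pygl, while Gapdh, Eno1, Hk3 and Rpe overlap.

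Promoter sequences are shown for 3 members, Ldha, which had the highest level per length, Pfkp, the called member with the largest rise in CEBPA-first against CSF3R-only, and Pygl, 1 of the members with the largest falls. They are the 250 bases before the RefSeq start site (GRCm38.p6), 5′ to 3′ on the strand of the gene. Capitals mark the core of the hypoxia response element, ACGTG or GCGTG on either strand. The windows are chr7:46845554-46845803 (plus strand) for Ldha, chr13:6648772-6649021 (minus strand) for Pfkp and chr12:70227684-70227933 (minus strand) for Pygl. The RefSeq start sites used for Ldha and Pygl lie inside longer gene models of the GENCODE annotation, where a noncoding gene on the opposite strand overlaps the Pygl window.
Ldha: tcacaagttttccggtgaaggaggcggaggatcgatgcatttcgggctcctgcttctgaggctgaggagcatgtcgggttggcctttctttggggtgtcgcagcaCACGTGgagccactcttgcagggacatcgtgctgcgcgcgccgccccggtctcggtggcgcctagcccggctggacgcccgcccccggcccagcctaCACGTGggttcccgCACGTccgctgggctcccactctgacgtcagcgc
Pfkp: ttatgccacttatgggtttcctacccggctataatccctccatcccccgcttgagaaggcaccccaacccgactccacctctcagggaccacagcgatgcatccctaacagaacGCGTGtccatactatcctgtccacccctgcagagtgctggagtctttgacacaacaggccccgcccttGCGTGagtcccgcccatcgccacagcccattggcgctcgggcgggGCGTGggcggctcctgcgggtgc
Pygl: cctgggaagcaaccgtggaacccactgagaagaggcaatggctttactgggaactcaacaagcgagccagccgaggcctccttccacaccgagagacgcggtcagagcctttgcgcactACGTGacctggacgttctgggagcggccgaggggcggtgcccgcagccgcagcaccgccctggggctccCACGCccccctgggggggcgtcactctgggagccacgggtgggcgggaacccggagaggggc

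Cores were found 5 times in the Ldha window, 3 times for Pfkp and 2 times for Pygl, where each CACGTG counts as a match on both strands. Ldha held 2 copies of CACGTG, the E-box that MYC proteins bind, and the other two windows held none. Over the full windows of 300 bases in the RefSeq table (34 of the 35 members matched, with 48 windows), 30 of 34 members (88.2%) had a hypoxia response core in at least 1 window, against 46.7% of all 27025 genes of the table and 65.3% of the 10936 of them tested here. The core was present for 8 of 10 members called higher in the comparison of CEBPA-first with CSF3R-only, 12 of 13 called lower and 10 of 11 not called, so it was present in both directions of change. GGGCGG, the GC box, was in 28 of 34 members (82.4%) against 65.3% of tested genes. TTGCNNAA, a form of the C/EBP site, was in 4 of 34 members (Rpia, Pgls, Pkm and Pfkm; 11.8%) against 10.5% of tested genes. TTCNNNGAA, a form of the STAT site, was in 2 of 34 (Aldoc and Pfkm; 5.88%) against 8.32% of tested genes. CACGTG was in 4 of 34 (Pfkfb3, Slc16a1, Ldha and Pfkm; 11.8%) against 11.3% of tested genes. All motifs were searched on both strands, and a match is not evidence of binding.

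CEBPA-first was first compared with CSF3R-only, which differ in the presence of mutant CEBPA and in the vector that carries CSF3R. The vector also set when CSF3R T618I came on, from the start in CSF3R-only and only after Cre recombination in CEBPA-first. Of the 35 members, 10 were higher, 14 were lower and 11 were not called, so 68.6% were called against 72% of all 15703 genes tested (35.4% higher and 36.6% lower). The median log2 fold change over the members was 0.02, against -0.00 over all tested genes. With a log2 fold change of at least 1 in either direction, 1 member was higher (Pfkp) and 6 were lower (Slc2a3, Aldoc, Pfkfb4, Ldhb, Taldo1 and Pygl), 7 of 35 against 27% of all genes (8.07% higher and 19% lower). The groups did not overlap for 21 members, 8 higher and 13 lower, against 68.7% of all genes. The share of members called was thus near that of all genes, and the members differed among themselves in direction.

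Glucose enters through the SLC2A transporters and is trapped by hexokinases. Slc2a3 (GLUT3, a high-affinity transporter; chr6:122727809-122801640, minus strand) was at 247, 233, 271 and 277 CPM in CSF3R-only replicates A to D, at 119.7, 94.9 and 143 CPM in CSF3R-first A to C and at 83.2, 73.9, 113 and 57.7 CPM in CEBPA-first A to D. All CSF3R-only samples lay above all others, and CSF3R-first and CEBPA-first overlapped. The log2 fold change of CEBPA-first against CSF3R-only was -1.65 ± 0.18 (edgeR adjusted p = 2.5e-06). Slc2a1 (GLUT1, the widely expressed transporter) was at 233 ± 13.4 CPM in CSF3R-only and 211 ± 34.8 CPM in CEBPA-first (SD, n = 4 each) and was not called (-0.14 ± 0.11, edgeR adjusted p = 0.29). Slc2a1 therefore held 52.4% ± 2.78 of the level per kb of these transporters in CSF3R-only (SD, n = 4) and 76.1% ± 2.89 in CEBPA-first (SD, n = 4).

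Among the hexokinases, Hk1 was lower (log2 fold change -0.24 ± 0.07) and Hk2, the form linked to growth and mitochondria, was higher (0.28 ± 0.08) in CEBPA-first, with edgeR adjusted p of 0.0087 and 0.0068. Hk3, the form typical of myeloid cells, was at 296 ± 24.7 and 301 ± 32.2 CPM (SD, n = 4 each) and was not called (0.02 ± 0.12). Hk1 and Hk3 each held over 40 percent of the family's level per kb in CEBPA-first (40.6% and 49.2%), and Hk2 held 10.2%. With the union of exons as the length, these shares were 27.99% (Hk1), 59.1% (Hk3) and 12.9% (Hk2).

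Of the upper glycolysis genes, Pfkp and Tpi1 were higher and Gpi1 and Aldoc were lower. Pfkp (the platelet form of phosphofructokinase, which commits sugar to glycolysis; chr13:6579768-6648777, minus strand) was at 216, 259.7, 262.4 and 251 CPM in CSF3R-only A to D, at 366, 321 and 367 CPM in CSF3R-first A to C and at 520.0, 531, 564 and 414 CPM in CEBPA-first A to D. The 3 groups did not overlap, with CSF3R-first in between. The log2 fold change of CEBPA-first against CSF3R-only was 1.04 ± 0.10 (edgeR adjusted p = 8.9e-07). Pfkl (the liver form) was not called (0.08 ± 0.10), and neither was Pfkm (the muscle form, 0.18 ± 0.11). By level per kb, Pfkp rose from 32.5% ± 1.08 of the 3 forms in CSF3R-only (SD, n = 4) to 48.2% ± 1.30 in CEBPA-first (SD, n = 4). With the union of exons as the length these shares were 20.7% and 33.4%. Pfkp shares 18.1% of its transcript with an overlapping neighbour.

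Aldoc (an aldolase form best known from brain; chr11:78322968-78327781, plus strand) was at 29.7, 38.6, 42.3 and 35.3 CPM in CSF3R-only A to D, at 32.4, 11.3 and 27.1 CPM in CSF3R-first A to C and at 13.4, 9.12, 19.4 and 6.33 CPM in CEBPA-first A to D. Every CEBPA-first sample lay below every CSF3R-only sample, and CSF3R-first B lay among the CEBPA-first samples. Its log2 fold change was -1.61 ± 0.33 (edgeR adjusted p = 0.00076). Aldoa, the main form with 99.2% of aldolase level per kb in CSF3R-only, was not called (-0.21 ± 0.12). Tpi1, the isomerase that interconverts the products of aldolase, was at 975 ± 103 and 1386 ± 194 CPM (SD, n = 4 each; log2 fold change 0.51 ± 0.12, edgeR adjusted p = 0.0023).

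Pfkfb3 and Pfkfb4, 2 of the 4 enzymes that set the level of fructose 2,6-bisphosphate, the main activator of phosphofructokinase, were lower. Pfkfb4 (chr9:108991778-109032228, plus strand) was at 104.6, 80.9, 73.0 and 84.6 CPM in CSF3R-only A to D, at 67.2, 42.8 and 46.6 CPM in CSF3R-first A to C and at 20.7, 16.9, 21.2 and 14.7 CPM in CEBPA-first A to D. The groups did not overlap, and CSF3R-first lay in between. The log2 fold change was -2.23 ± 0.16 (edgeR adjusted p = 1.0e-07), the most negative among members with a mean log2 CPM of at least 2. Pfkfb3 was at 91.97 ± 11.8 CPM in CSF3R-only and 50.0 ± 4.66 CPM in CEBPA-first (SD, n = 4 each), with a log2 fold change of -0.88 ± 0.12 (edgeR adjusted p = 1.8e-05). The other two genes of this family, on the list of further glycolysis genes and singled out after their values were seen, were at low levels and split. Pfkfb1 was at 3.29 ± 0.365 and 4.56 ± 0.453 CPM (SD, n = 4 each) and was higher (0.47 ± 0.13, edgeR adjusted p = 0.0062), and Pfkfb2 was at 4.71 ± 0.818 and 2.64 ± 0.235 CPM (SD, n = 4 each) and was lower (-0.83 ± 0.14, edgeR adjusted p = 0.00011).

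In lower glycolysis, 1 of 6 members was higher, 1 was lower and 4 were not called, so 33.3% were called against 72% of all tested genes. Gapdh (0.10 ± 0.09), Eno1 (0.09 ± 0.12), Eno3 (0.02 ± 0.11) and Pgk1 (0.30 ± 0.13), which encode the dehydrogenase, forms of enolase and phosphoglycerate kinase, were not called, with edgeR adjusted p of 0.36, 0.49, 0.86 and 0.055. Pgam1 (phosphoglycerate mutase, 0.32 ± 0.08, edgeR adjusted p = 0.0024) was higher. Pkm (pyruvate kinase of muscle and most growing cells) was at 3446, 3497, 3426 and 3502 CPM in CSF3R-only A to D and at 2679, 2557, 3013 and 2123 CPM in CEBPA-first A to D. The groups did not overlap, and the log2 fold change was -0.42 ± 0.11 (edgeR adjusted p = 0.0050). The counts do not separate the M1 and M2 isoforms of Pkm.

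Of the 6 pyruvate and lactate genes, 3 were higher and 3 lower (72% of all tested genes were called in this comparison, 35.4% higher and 36.6% lower), and each direction held 1 member of each pair of related genes. Ldha (chr7:46841475-46855627, plus strand) was at 2360.3, 3027.5, 2982.5 and 2724.5 CPM in CSF3R-only A to D, at 3748, 3069.6 and 3638 CPM in CSF3R-first A to C and at 4208, 4017, 4612 and 3621.5 CPM in CEBPA-first A to D. All CEBPA-first samples lay above all CSF3R-only samples and overlapped CSF3R-first, and the log2 fold change was 0.57 ± 0.10 (edgeR adjusted p = 0.00027). Ldhb, the subunit that favours the use of lactate, had 61 to 109 raw counts per library in CSF3R-only, 9 to 17 in CEBPA-first and 14 to 32 in CSF3R-first. Its log2 fold change was -3.00 ± 0.30 (edgeR adjusted p = 1.4e-06), but Ldha held over 99 percent of the level per kb of both in every group, so that Ldhb was a trace transcript throughout.

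Slc16a1 (MCT1, a transporter of lactate and pyruvate; chr3:104638668-104658462, plus strand) was at 142, 191, 177 and 168 CPM in CSF3R-only A to D, at 192, 271.5 and 229.6 CPM in CSF3R-first A to C and at 309, 350.4, 295 and 296 CPM in CEBPA-first A to D. The 3 groups did not overlap, and the log2 fold change of CEBPA-first against CSF3R-only was 0.88 ± 0.11 (edgeR adjusted p = 1.1e-05). Slc16a3 (MCT4, the transporter linked to lactate export from glycolytic cells) went the other way, from 800.5 ± 23.7 to 503 ± 131 CPM (SD, n = 4 each; -0.67 ± 0.18, edgeR adjusted p = 0.0053). Slc16a3 remained the larger of this pair per kb in CEBPA-first, at 61.4% ± 6.44 against 82.8% ± 1.92 in CSF3R-only (SD, n = 4 each).

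Pdk1 (a kinase that shuts pyruvate dehydrogenase off; chr2:71873224-71903858, plus strand) was at 99.98, 117.5, 116 and 113 CPM in CSF3R-only A to D, at 150.2, 103 and 142 CPM in CSF3R-first A to C and at 171, 179, 191 and 122.4 CPM in CEBPA-first A to D. CEBPA-first lay above CSF3R-only in every sample, by the smallest margin in replicate D, and the log2 fold change was 0.57 ± 0.14 (edgeR adjusted p = 0.0021). Pdk3, a related kinase on the X chromosome, was at 139.7 ± 5.61 CPM in CSF3R-only (SD, n = 4), 103 ± 4.05 CPM in CEBPA-first (SD, n = 4) and 106 ± 2.48 CPM in CSF3R-first (SD, n = 3). CEBPA-first lay below CSF3R-only (-0.44 ± 0.05, edgeR adjusted p = 5.8e-06).

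In the oxidative pentose phosphate arm, G6pdx and Pgd, the members that make NADPH, were lower. G6pdx (glucose 6-phosphate dehydrogenase, the entry step; chrX:74409483-74429194, minus strand) was at 1241, 1105, 964 and 1146 CPM in CSF3R-only A to D, at 1343, 1096 and 1015 CPM in CSF3R-first A to C and at 837, 788, 764 and 702 CPM in CEBPA-first A to D. All CEBPA-first samples lay below all samples of both other groups, which overlapped each other, and the log2 fold change against CSF3R-only was -0.53 ± 0.10 (edgeR adjusted p = 0.00038). Pgd, the second NADPH-producing enzyme, was at 977 ± 84.6 CPM in CSF3R-only and 556 ± 33.7 CPM in CEBPA-first (SD, n = 4 each; -0.81 ± 0.10, edgeR adjusted p = 6.1e-06). Pgls, the lactonase between them, was higher (0.33 ± 0.06, edgeR adjusted p = 0.00025). H6pd, which runs the first steps of this arm in the endoplasmic reticulum and is on the list of further genes, was higher too, at 59.8 ± 2.66 CPM in CSF3R-only and 74.3 ± 5.39 CPM in CEBPA-first (SD, n = 4 each; 0.31 ± 0.07, edgeR adjusted p = 0.00088), and it was higher in CEBPA-first against CSF3R-first (0.32 ± 0.07, edgeR adjusted p = 0.0034).

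In the non-oxidative arm, the sugar-exchanging enzymes split. Taldo1 (transaldolase; chr7:141392199-141402968, plus strand) was at 973, 973, 899.5 and 907 CPM in CSF3R-only A to D, at 779.8, 587.5 and 616 CPM in CSF3R-first A to C and at 475, 434.5, 455 and 439 CPM in CEBPA-first A to D. The groups did not overlap, and the log2 fold change was -1.06 ± 0.09 (edgeR adjusted p = 2.4e-07). Tkt (transketolase) was higher (0.28 ± 0.06, edgeR adjusted p = 0.00082), while Rpe and Rpia, which interconvert the pentoses, were not called (0.03 ± 0.07 and 0.22 ± 0.16).

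Of the glycogen genes, Pygl (the phosphorylase that breaks glycogen down; chr12:70190811-70231488, minus strand) was at 1043, 877, 865.5 and 922 CPM in CSF3R-only A to D, at 657, 392 and 460.5 CPM in CSF3R-first A to C and at 248.5, 214, 279.7 and 172 CPM in CEBPA-first A to D. The groups did not overlap, and the log2 fold change was -2.02 ± 0.17 (edgeR adjusted p = 3.0e-07). Gys1 (glycogen synthase) was higher by 0.33 ± 0.12 (edgeR adjusted p = 0.020). Gys1 shares part of its transcript with the neighbouring gene Ruvbl2, which had more counts. Gys1 was not called without CSF3R-only A or CEBPA-first C. Gpi1, the isomerase of the step after hexokinase, was lower (-0.27 ± 0.10, edgeR adjusted p = 0.034), a call near the threshold that was lost without any 1 of CSF3R-only B, C and D and CEBPA-first A, B and D, with log2 fold changes from -0.33 to -0.14 over all alternatives. Gpi1 and Hk1 also lost their calls when TMM scaling or the count filter was left out.

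**Figure D2:**
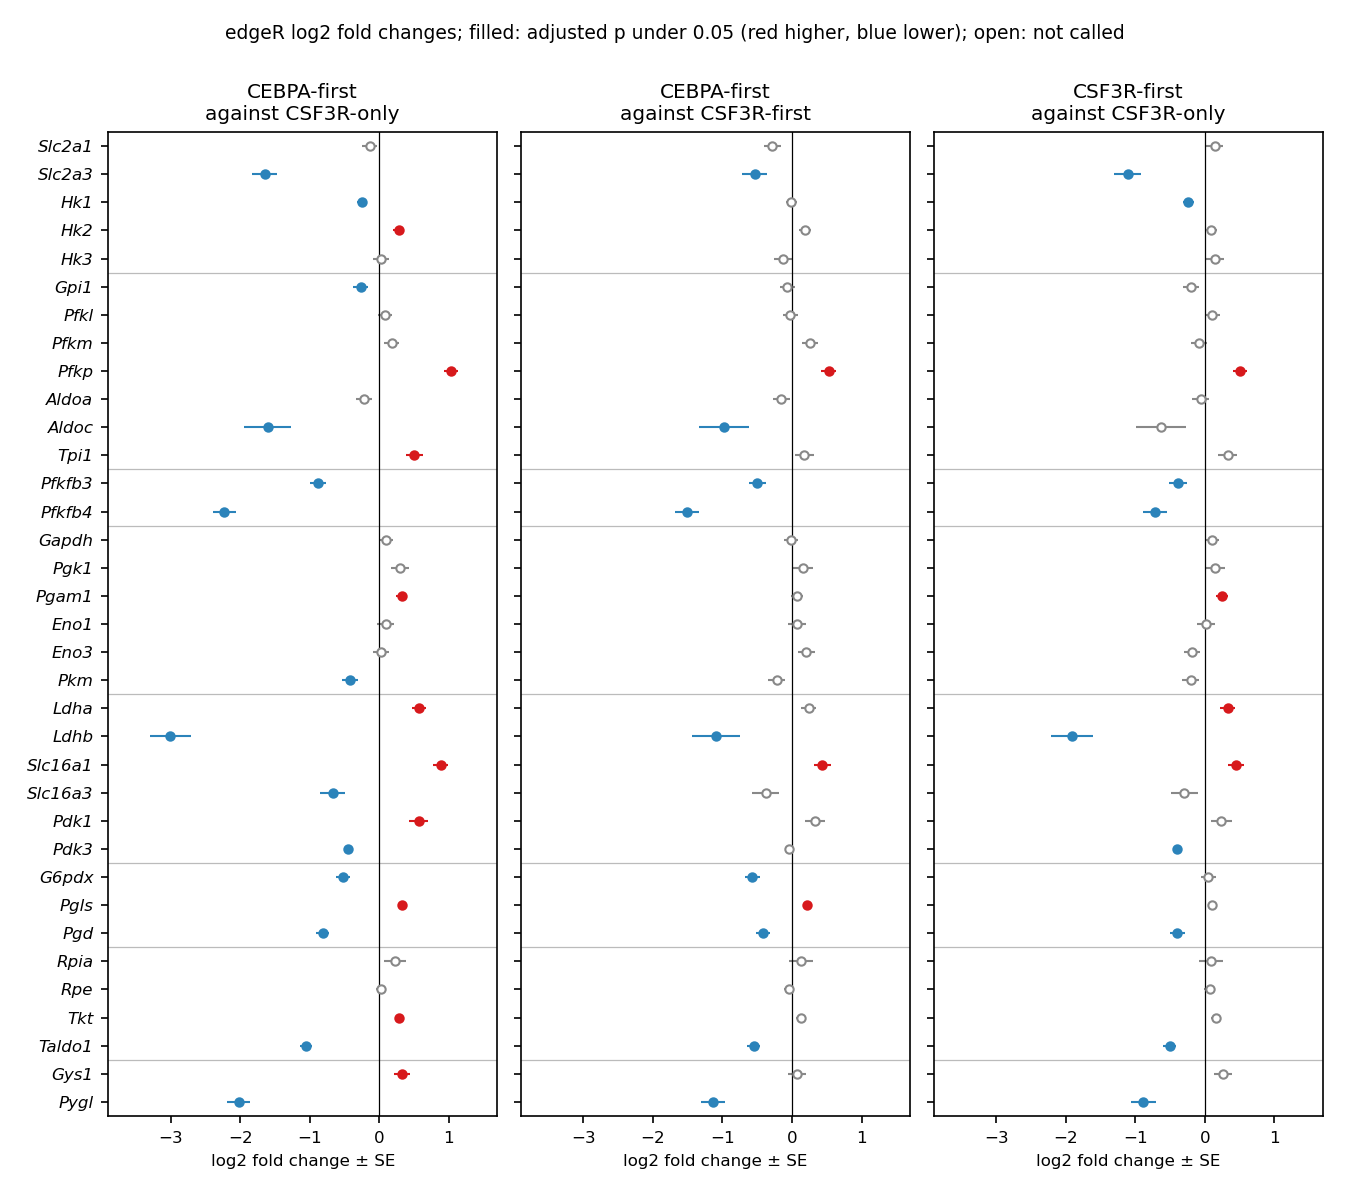
Log2 fold changes (x axis, point with standard error) of the 35 genes (y axis, by role) in the 3 comparisons of the edgeR fit, filled where the adjusted p was under 0.05, red for higher and blue for lower. CEBPA-first against CSF3R-only had 10 filled red and 14 filled blue points, and the other comparisons had 3 and 9, and 4 and 9.

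CEBPA-first was then compared with CSF3R-first, which carry the same pair of oncogenes in the opposite order. Of the 35 members, 3 were higher (Pfkp, Slc16a1 and Pgls), 9 were lower and 23 were not called, so 34.3% were called against 48.3% of all tested genes (24% higher and 24.3% lower). With a log2 fold change of at least 1, no member was higher and 3 were lower (Pfkfb4, Ldhb and Pygl), against 12.8% of all genes (2.57% higher and 10.3% lower). The groups did not overlap for 10 members, 3 higher and 7 lower, against 52.2% of all genes. The median over the members was -0.02, against 0.00 over all tested genes. No lower glycolysis gene was called at an adjusted p under 0.05, and their log2 fold changes lay between -0.22 (Pkm) and 0.21 (Eno3).

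Pfkfb4 (-1.51 ± 0.17, edgeR adjusted p = 2.3e-05) and Pfkfb3 (-0.50 ± 0.13, edgeR adjusted p = 0.0061) were lower in CEBPA-first, as was Pygl (-1.14 ± 0.17, edgeR adjusted p = 0.00026). Pfkp (0.53 ± 0.11, edgeR adjusted p = 0.0016) and Slc16a1 (0.44 ± 0.12, edgeR adjusted p = 0.010) were higher. In the pentose phosphate pathway, G6pdx (-0.57 ± 0.11, edgeR adjusted p = 0.0011), Pgd (-0.42 ± 0.10, edgeR adjusted p = 0.0052) and Taldo1 (-0.55 ± 0.09, edgeR adjusted p = 0.00044) were lower.

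Pgls (chr8:71592176-71601092, plus strand) was at 76.4, 84.7, 79.6 and 79.8 CPM in CSF3R-only A to D, at 86.0, 81.3 and 92.3 CPM in CSF3R-first A to C and at 97.8, 97.7, 98.8 and 109 CPM in CEBPA-first A to D. All CEBPA-first samples lay above all others, and the log2 fold change against CSF3R-first was 0.22 ± 0.06 (edgeR adjusted p = 0.014). This call was lost without CSF3R-first B and when only these 2 groups were fitted, as were those of Slc2a3 and Aldoc in the fit of 2 groups. The call of Slc2a3 (-0.54 ± 0.19) was lost without any 1 of CEBPA-first A, B and D and CSF3R-first A and C, and that of Aldoc (-0.98 ± 0.35) without any 1 of the same libraries or CSF3R-only B and in DESeq2. Ldhb (-1.09 ± 0.34) was not called without CSF3R-first A, where its log2 fold change was -0.56, and the count of members past a log2 fold change of 1 was then 1.

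CSF3R-first was compared with CSF3R-only, which differ in the late addition of mutant CEBPA. Of the 35 members, 4 were higher (Pfkp, Slc16a1, Ldha and Pgam1), 9 were lower and 22 were not called, so 37.1% were called against 42.7% of all tested genes (21.6% higher and 21.1% lower). With a log2 fold change of at least 1, no member was higher and 2 were lower (Slc2a3 and Ldhb), against 6.65% of all genes (2.13% higher and 4.53% lower). This count was 1 without CSF3R-first B. The groups did not overlap for 12 members, 5 higher and 7 lower, against 42.1% of all genes. The median over the members was 0.05, against -0.02 over all tested genes.

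Slc2a3 was lower in CSF3R-first (-1.11 ± 0.19, edgeR adjusted p = 0.00082), as were Pygl (-0.88 ± 0.18, edgeR adjusted p = 0.0021), Pfkfb4 (-0.72 ± 0.17, edgeR adjusted p = 0.0051) and Taldo1 (-0.50 ± 0.09, edgeR adjusted p = 0.0012). Pdk3 (-0.40 ± 0.06, edgeR adjusted p = 0.00026) was lower, Pfkp was higher by 0.51 ± 0.10 (edgeR adjusted p = 0.0023), and Ldhb was lower (-1.91 ± 0.31, edgeR adjusted p = 0.00053). Pgam1 (chr19:41911923-41918660, plus strand) was at 253.5, 289.6, 275 and 271 CPM in CSF3R-only A to D, at 361, 301 and 311 CPM in CSF3R-first A to C and at 351, 352, 361 and 299 CPM in CEBPA-first A to D. Every CSF3R-only sample lay below all others (0.25 ± 0.09 for CSF3R-first, edgeR adjusted p = 0.031).

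Several calls of this comparison lay near the threshold. When only these 2 groups were fitted, Hk1, Pfkfb3 and Ldha were not called. Pgam1 was not called without any 1 of CSF3R-only A, C and D and CSF3R-first A, and Ldha (0.33 ± 0.11) without any 1 of CSF3R-only A and D and CSF3R-first A and C. Pfkfb3 (-0.38 ± 0.13) lost its call without CSF3R-only A or D or CSF3R-first B or C, and Hk1 (-0.23 ± 0.08) without CSF3R-only C or D or CSF3R-first A or B. Slc16a1 (0.45 ± 0.12) was not called without CSF3R-first B, nor Pgd (-0.39 ± 0.10) without CSF3R-first C. G6pdx was not called here, at 0.05 ± 0.11 (edgeR adjusted p = 0.76).

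The comparisons share samples, so the place of CSF3R-first is given only as a description. For the 24 members called between CEBPA-first and CSF3R-only, CSF3R-first lay at a median position of 0.50, on a scale where 0 is the mean log2 CPM of CSF3R-only and 1 that of CEBPA-first. Of the 24, 23 lay between 0 and 1. G6pdx, at -0.08, was the exception and stayed at the CSF3R-only level. Hk1 (0.98) and Pdk3 (0.89) lay next to CEBPA-first, and Hk2 (0.32), Pfkfb4 (0.33) and Pgls (0.33) lay nearer CSF3R-only. The median was 0.28 for CSF3R-first A, 0.62 for B and 0.57 for C, so sample A stood closer to CSF3R-only than the others did. The neutrophil maturation sum also differed among these 3 samples, from 15078 to 26396 CPM.

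In a ratio between related genes of a library the scaling nearly cancels, and 12 pairs were compared. Ratios were formed from log2 CPM with a prior count of 2, which shrinks those of genes with few counts, and tested with a two-sided exact permutation test over samples, which cannot give a p below 0.0286 with these group sizes. Groups did not overlap for 8 of the 12 pairs between CEBPA-first and CSF3R-only, 3 between CEBPA-first and CSF3R-first and 7 between CSF3R-first and CSF3R-only, each at that smallest p. Adjusted over all 36 comparisons, these reached an exact permutation p of 0.0571, so no ratio passed 0.05. This adjusted p depends on how many of the 36 comparisons reached the smallest p, which was 18.

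Between CEBPA-first and CSF3R-only, the log2 ratio of Slc16a3 to Slc16a1 fell from 2.25 ± 0.19 to 0.65 ± 0.40 (SD, n = 4 each; exact permutation p = 0.0286), a change of 3.02-fold. The ratio of Slc2a3 to Slc2a1 fell 2.90-fold, Pfkfb4 to Pfkfb3 fell 2.55-fold and Pdk3 to Pdk1 fell 1.996-fold. Aldoc to Aldoa fell 2.80-fold and Ldhb to Ldha 10.3-fold, which the prior count understates because Ldhb had few counts. In the opposite sense, Pfkp to Pfkl was 1.94-fold higher, at 0.12 ± 0.07 against -0.84 ± 0.07 (SD, n = 4 each; exact permutation p = 0.0286), and Hk2 to Hk1 was 1.43-fold higher. Pfkp to Pfkl, Pfkfb4 to Pfkfb3 and Ldhb to Ldha were the ratios whose groups did not overlap in any of the 3 comparisons. The ratios of Hk3 to Hk1, Hk3 to Hk2, Pfkm to Pfkl and Eno3 to Eno1 overlapped in all 3.

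**Figure D3:**
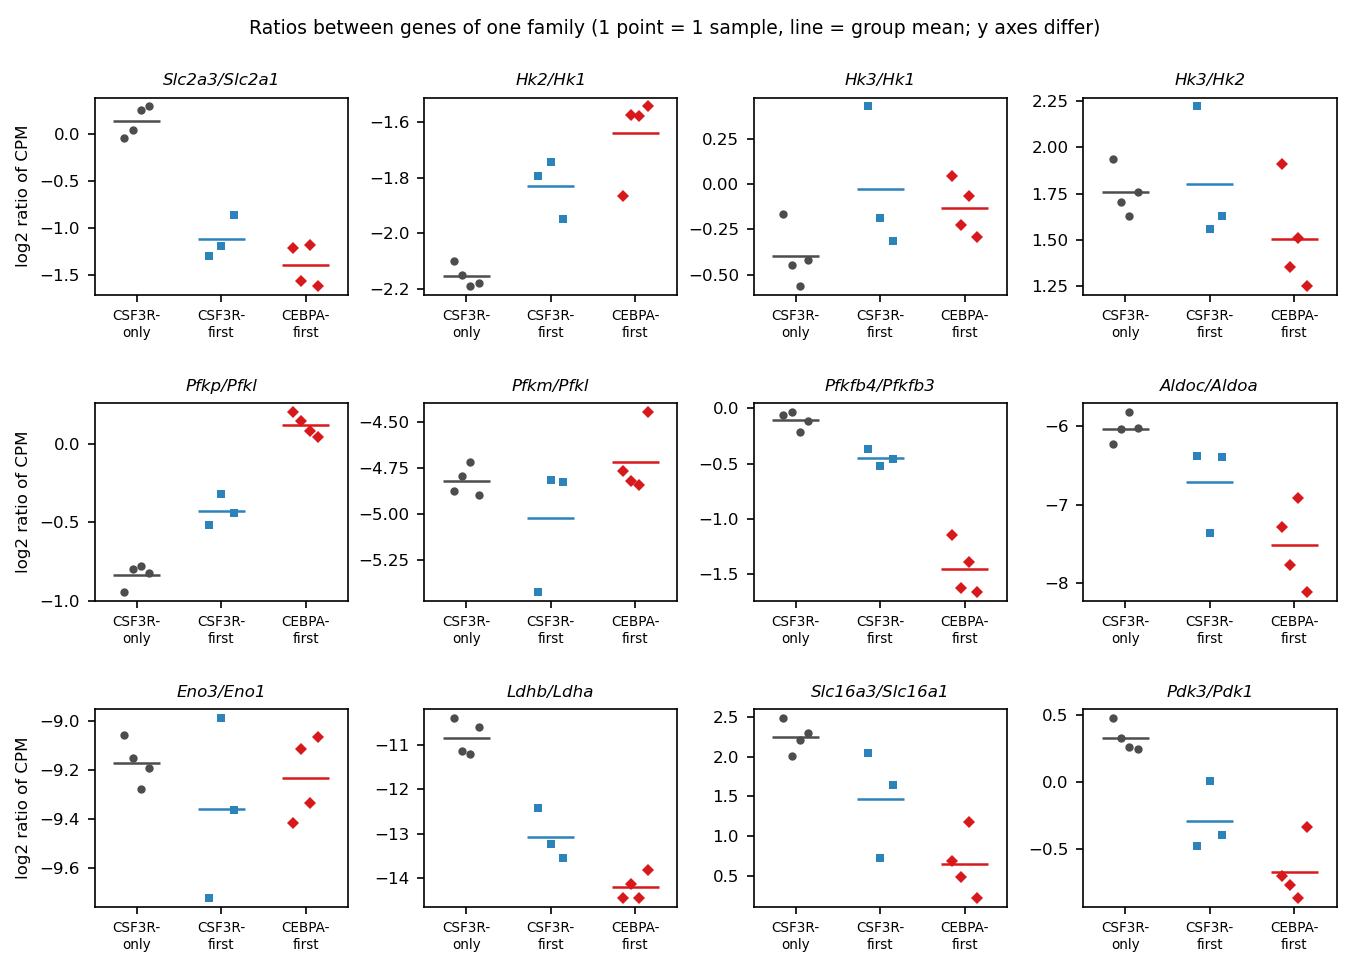
Log2 ratio of CPM (y axis, scales differ) for 12 pairs of related genes in the 3 groups (x axis), with 1 point per sample and a line at the group mean. The 3 groups are fully apart for Pfkp/Pfkl, Pfkfb4/Pfkfb3 and Ldhb/Ldha, where the mean of Pfkp/Pfkl goes from -0.84 through -0.43 to 0.12.

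**Figure D4:**
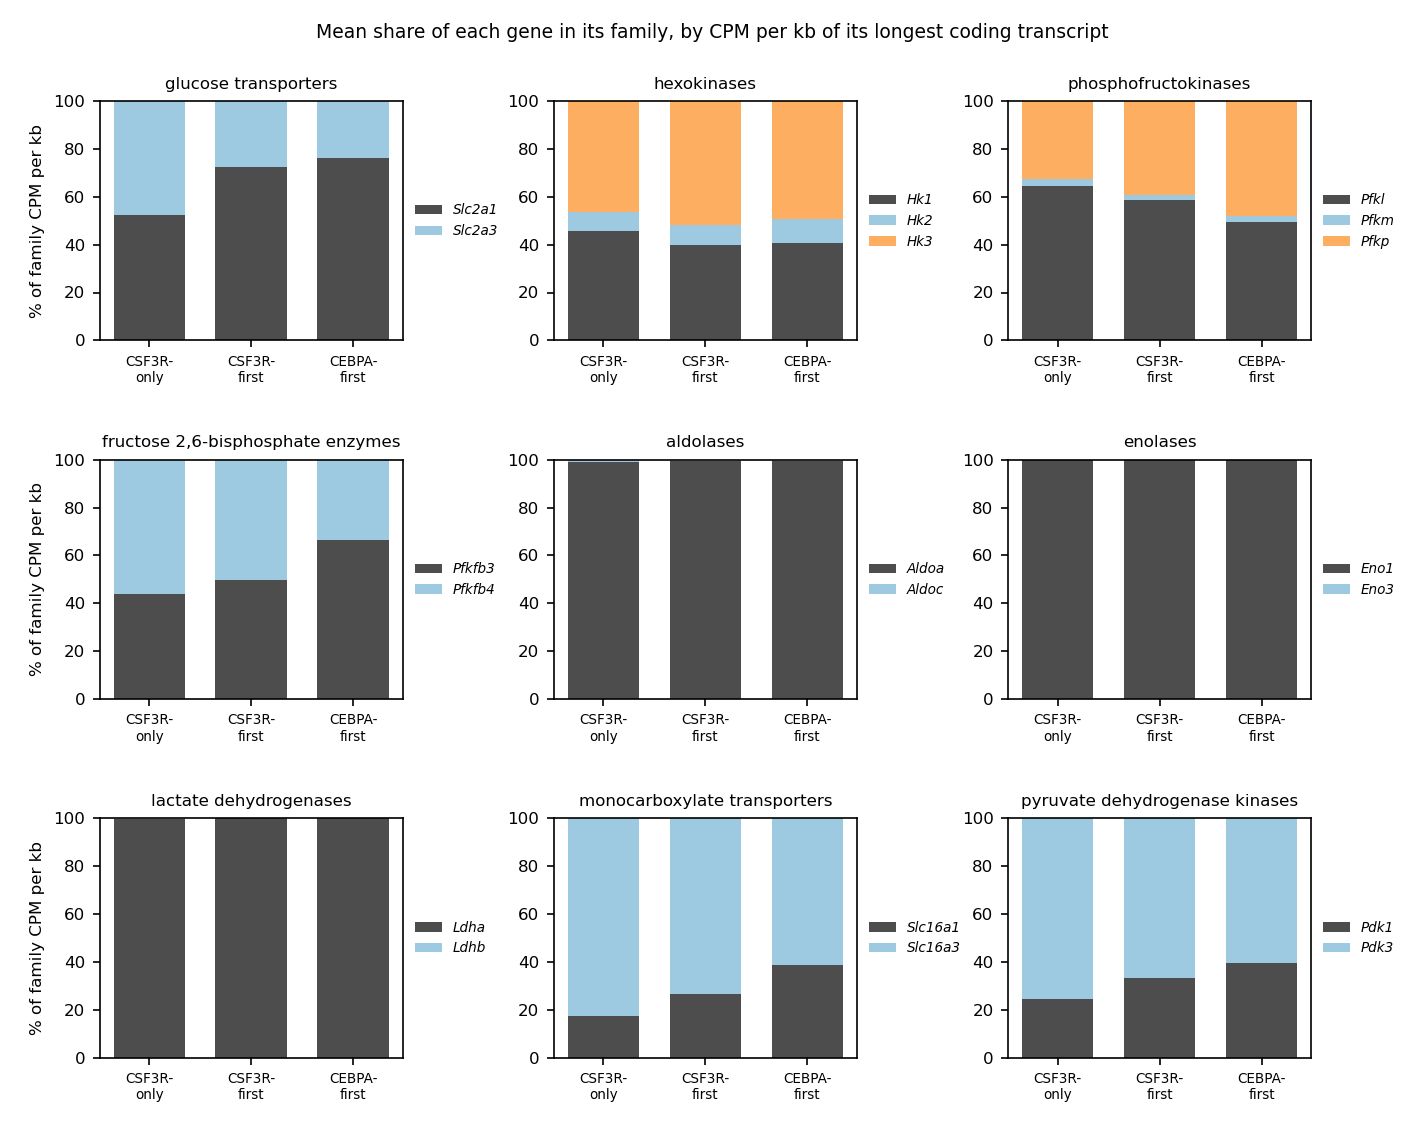
Mean share of each gene in its family (y axis, percent of the family's CPM per kb of longest coding transcript) in the 3 groups (x axis), with bars stacked to 100 percent. The Pfkp share goes from 32.5% in CSF3R-only to 48.2% in CEBPA-first and the Slc16a1 share from 17.2% to 38.6%, while Ldha, Aldoa and Eno1 make up over 99 percent of their families in every group.

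Samples of a group did not vary independently across the members. Within CEBPA-first, replicate D held the lowest level for 25 of the 35 members and replicate C the highest for 25, against 35.3% and 23.3% of all tested genes. Within CSF3R-first, replicate B held the lowest for 24 members and replicate A the highest for 25, against 33.5% and 40.2% of all genes. Within CSF3R-only, replicate A held the lowest for 18 and replicate B the highest for 17, against 35.5% and 33.0% of all genes. Tpi1 shows the pattern: CEBPA-first A to D were at 1431, 1351, 1616 and 1148 CPM and CSF3R-first A to C at 1413, 1012 and 1248 CPM, so that CSF3R-first A was above CEBPA-first D. The median SD of the members was 0.10 log2 CPM in CSF3R-only, 0.17 in CEBPA-first and 0.24 in CSF3R-first. Genes are not independent replicates, and the order of samples was noticed in these data, so no test is given.

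Some of these samples also stood out for 16 other targets of the hypoxia-inducible factor HIF-1, a list outside the members. CEBPA-first C was the highest sample of its group for all 16 and D the lowest for 12. CSF3R-first B was the lowest of its group for 14 and A the highest for 10. In CSF3R-only, A was the lowest for 8, but B was the highest for only 4 (25% against 33.0% of all tested genes). Between groups these 16 genes did not move one way. In CEBPA-first against CSF3R-only, 6 were higher, 4 were lower and 6 were not called, 62.5% against 72% of all genes. Ero1l, an oxidase of the endoplasmic reticulum, was higher (1.34 ± 0.11, edgeR adjusted p = 3.8e-07) and Mxi1, a MAX partner, was lower (-1.12 ± 0.14, edgeR adjusted p = 1.2e-05). Hif1a itself was at 668 ± 33.0 CPM in CSF3R-only and 652 ± 72.9 CPM in CEBPA-first (SD, n = 4 each; -0.03, edgeR adjusted p = 0.74).

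**Figure D5:**
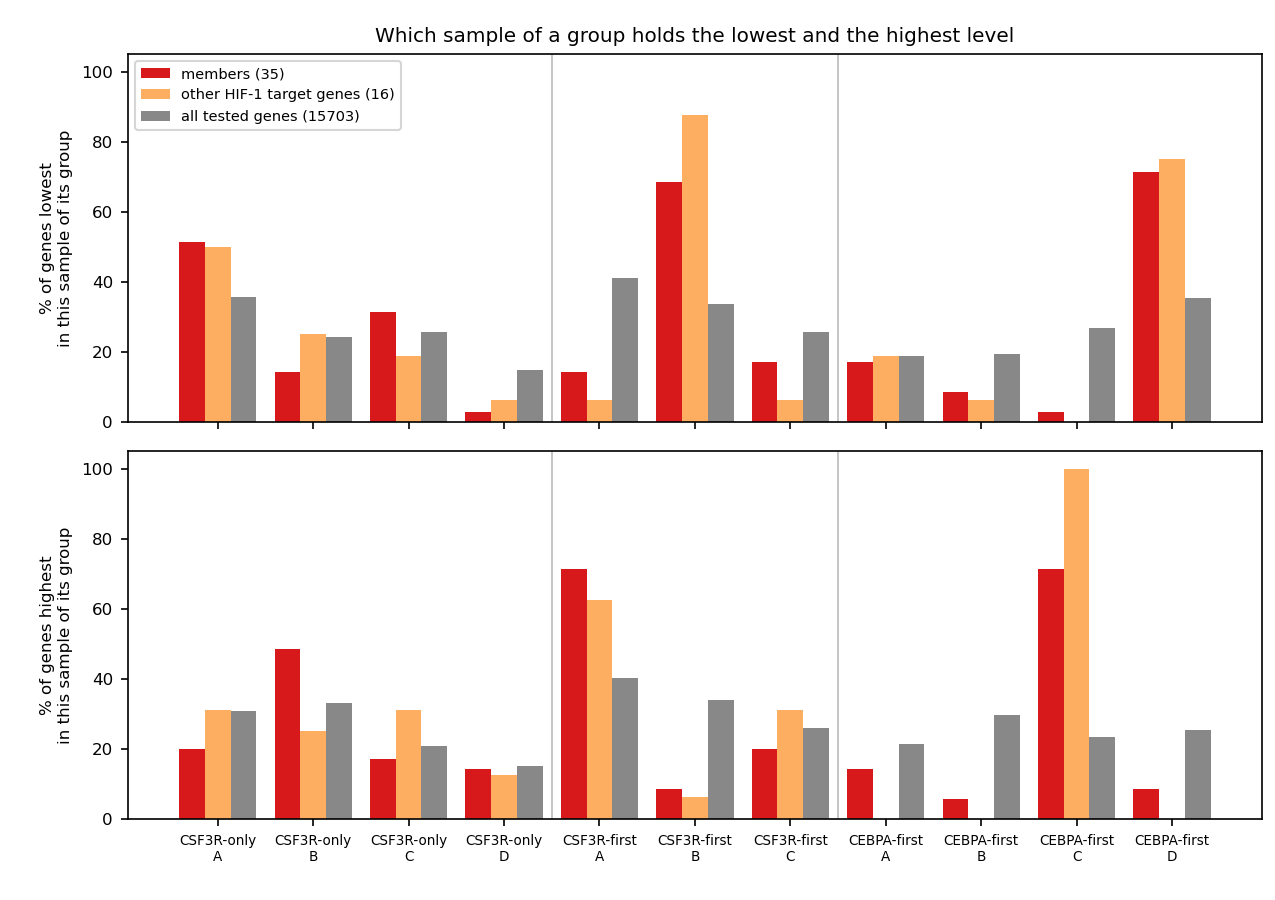
Percent of genes (y axis) that have their lowest (upper panel) or highest (lower panel) level of the group in each sample (x axis), for the 35 members, 16 other HIF-1 targets and all 15703 tested genes. CEBPA-first D and CSF3R-first B are the lowest samples for 71.4% and 68.6% of members, and CEBPA-first C and CSF3R-first A the highest for 71.4% of members each.

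Other genes of the same pathways were taken from lists of 102 further genes, of which 86 were tested. In CEBPA-first against CSF3R-only, 34 were higher, 31 were lower and 21 were not called, with a median log2 fold change of -0.02. That is 75.6% called against 72% of all tested genes (35.4% higher and 36.6% lower), and the counts of each list below stand against the same shares. Of 15 tested sugar transporters and further glycolysis enzymes, 3 were higher and 9 lower, led by Slc2a6, a transporter of lysosomes in myeloid cells (-2.003 ± 0.14, edgeR adjusted p = 7.3e-08). Of 15 tested pyruvate and lactate genes, 8 were higher and 4 lower. Among these, Pdhb and Dlat, subunits of the pyruvate dehydrogenase complex, were higher (0.70 ± 0.06 and 0.65 ± 0.08, edgeR adjusted p = 4.2e-07 and 1.1e-05), as was Pdp2, a phosphatase that reactivates it (0.85 ± 0.13, edgeR adjusted p = 6.0e-05). The 3 remaining subunit genes on the list, Pdha1, Dld and Pdhx, were singled out after their values were seen, and were higher by 0.42, 0.39 and 0.60. With a log2 fold change of at least 1, 1 gene of this list was higher and 2 were lower. Going down, Pdk2, a kinase related to Pdk1, had 225 to 371 raw counts per library in CSF3R-only and 117 to 173 in CEBPA-first. Ldhc, a further lactate dehydrogenase gene, had 74 to 118 and 18 to 52. Pdk2 and Ldhc were also singled out after their values were seen.

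Of 6 tested further pentose phosphate genes, 4 were higher and 1 lower. Prps1 and Prps2, which turn ribose phosphate into the precursor of nucleotides, were higher by 1.08 ± 0.11 and 1.12 ± 0.09 (edgeR adjusted p = 1.9e-06 and 3.4e-07). Of 14 tested further glycogen genes, 4 were higher and 6 lower. The branching enzyme Gbe1 was higher (0.90 ± 0.15, edgeR adjusted p = 0.00011). Of 4 tested gluconeogenesis genes 3 were higher, led by Pck2 (0.86 ± 0.08, edgeR adjusted p = 1.1e-06).

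Among 16 tested regulators, 6 were higher and 7 lower. Myc, a transcription factor known to drive glycolysis and ribosome genes, was at 158 ± 27.7 CPM in CSF3R-only (SD, n = 4), 465 ± 16.3 CPM in CEBPA-first (SD, n = 4) and 283 ± 45.1 CPM in CSF3R-first (SD, n = 3). The groups did not overlap, and Myc was higher in CEBPA-first by 1.56 ± 0.13 against CSF3R-only (edgeR adjusted p = 2.2e-07) and by 0.72 ± 0.13 against CSF3R-first (edgeR adjusted p = 0.0010). Nfe2l2 (NRF2, a known activator of the oxidative pentose phosphate genes) was lower in CEBPA-first against CSF3R-only (-0.78 ± 0.07, edgeR adjusted p = 1.0e-06) and against CSF3R-first (-0.37 ± 0.08, edgeR adjusted p = 0.0025). Nfe2l2 was lower in CSF3R-first against CSF3R-only too (-0.41 ± 0.08, edgeR adjusted p = 0.0019), where Pgd was lower and G6pdx was not called. Trp53 was higher in CEBPA-first against CSF3R-only (0.53 ± 0.09, edgeR adjusted p = 9.3e-05).

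In the comparisons with CSF3R-first, fewer of these further genes were called. Against CSF3R-first, CEBPA-first had 23 of the 86 higher, 22 lower and 41 not called (52.3% called against 48.3% of all genes), and CSF3R-first against CSF3R-only had 19 higher, 17 lower and 50 not called (41.9% against 42.7%). Of the 15 pyruvate and lactate genes, 8 were higher and 3 lower between CEBPA-first and CSF3R-first, with Dlat at 0.37 ± 0.09 (edgeR adjusted p = 0.0048). Prps1 and Prps2 were higher in both comparisons, by 0.50 and 0.62 for CEBPA-first against CSF3R-first and by 0.58 and 0.50 for CSF3R-first against CSF3R-only. Slc2a6 was lower in both, by -1.22 ± 0.15 and -0.78 ± 0.15 (edgeR adjusted p = 3.8e-05 and 0.0015). Vegfa, a growth factor gene on the HIF-1 list, was higher in CSF3R-first than CSF3R-only (0.79 ± 0.10, edgeR adjusted p = 1.0e-04).

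Some members have near-identical copies elsewhere in the genome, so reads could have been lost or shared. A stretch of at least 100 bp at 97% identity in another gene covered 88.0% of the Gapdh transcript, 85.6% of Eno1, 76.8% of Ldhb, 68.8% of Pgk1 and 65.5% of Pkm. The pseudogenes concerned held at most 0.53% as many counts as their member (Gapdh, 45 pseudogenes), and adding their counts to the members changed no call in the 3 comparisons. G6pdx, Pgk1 and Pdk3 lie on the X chromosome, and sex-linked markers were alike in every library. The Y-linked genes Ddx3y, Kdm5d, Uty and Eif2s3y were all expressed (Ddx3y at 69.8 to 79.9 CPM) and Xist was at or below 0.063 CPM, the pattern of male cells. The labels give no sex, and the study's methods speak of female mice.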

How the data were processed

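RNA was sequenced from 11 samples, and the deposited table holds raw read counts for 51912 Ensembl genes, which the authors made after trimming with Trimmomatic and, per the submitters' processing notes, alignment with STAR to mm10. The counting tool, annotation version and strand setting are not given in the sources used here. Of the genes, 23409 had no count, and 279 identifiers had no symbol. Groups were taken from the labels, and no deposited comparison was used.

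Counts were fitted with edgeR 4.0.16 in R 4.3.3 (filterByExpr, TMM, quasi-likelihood, all 11 samples in 1 model), and p-values were adjusted by Benjamini-Hochberg over the 15703 genes tested. The standard error is the log2 fold change over the root of its F statistic. Replicates were distinct libraries (their counts differed beyond sampling noise), and a count of 3 corresponds to 0.0383 to 0.0648 CPM. Alternatives used DESeq2 1.42.0 and limma 3.58.1, other normalization and filters, only the 2 groups compared, the replicate letter as a block, and each replicate left out. Near-identical copies were found with BLAST 2.17.0. The fit was tested on simulated data.

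The members and lists were chosen with earlier results of these data known. Values of every sample are given for up to 4 members per direction and comparison with the largest changes among those called with a mean log2 CPM of at least 2. Pkm and Tpi1 were added after their values were seen. Their values by sample are given for CSF3R-only and CEBPA-first (Pkm) and for CEBPA-first and CSF3R-first (Tpi1). Of each further list, at most 3 called genes per comparison were named by the same order. Hif1a, Pfkfb1, Pfkfb2, Pdk2, Ldhc and the remaining pyruvate dehydrogenase subunits were added after their values were seen. Some items of these lists are not reported here.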

Additional observations from a re-analysis of the deposited data

Results flagged for a closer look

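In 4 of the 70 groups of 4 samples examined over the members, 1 sample stood far from the other 3 by Dixon's criterion, where chance gives about 1 in 20 groups (3.5 here). Slc2a1 was at 253 CPM in CSF3R-only A, and the nearest other sample of the group was at 227 CPM. The other 3 were all CEBPA-first D. Pgam1 was at 299 CPM there (nearest other 351 CPM), Pdk3 at 96.7 CPM (nearest other 104.5 CPM) and Pgls at 109 CPM (nearest other 98.8 CPM), so that D was the lowest sample for the first pair and the highest for Pgls. Without CEBPA-first D, the calls of Pgam1, Pdk3 and Pgls were kept in CEBPA-first against CSF3R-only.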

How the results depend on the processing

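No result reversed under any alternative. The calls that held under every alternative, apart from the stricter test described next, were 21 of 24 in CEBPA-first against CSF3R-only. They were 8 of 12 in CEBPA-first against CSF3R-first and 7 of 13 in CSF3R-first against CSF3R-only. Ldhb could not be fitted under the filter of at least 10 counts and was judged on the other alternatives. Testing against a log2 fold change of 0.5 (glmTreat) left 10, 2 and 2 members called in these comparisons, by construction a stricter test. With each replicate left out in turn, the counts ranged from 23 to 25, 10 to 14 and 9 to 14, and the counts past a log2 fold change of 1 from 6 to 7, 1 to 4 (1 without CSF3R-first A) and 1 to 3 (1 without CSF3R-first B). Requiring at least 10 counts in every sample removed Ldhb and left 1 member past that size in CSF3R-first against CSF3R-only. Leaving out the 10 most counted genes that are not members raised the share of counts on the members to 2.44% in CSF3R-only, against 2.48% in CSF3R-first and 2.44% in CEBPA-first. Fitting only the 2 groups compared gave 26, 9 and 10 calls. Scaling by total counts alone moved the median of all genes by 0.13 in CEBPA-first against CSF3R-only, where Pfkl, Pfkm, Gapdh, Pgk1 and Rpe were then called higher and Hk1 and Gpi1 were not called. Pgk1 was also called there in DESeq2 and in 7 further alternatives.

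With the replicate letter as a block, 25, 14 and 13 members were called. Pgk1, Pfkm, Pdk1 and Aldoc were gained over the comparisons and Pgam1 was lost in CSF3R-first against CSF3R-only. What the letters mark is not stated. Correlations of deviations from group means ran from -0.11 to 0.36 over 10 same-letter pairs, 9 of them above 0, and from -0.34 to 0.38 over 30 others, 8 above 0. In 12 of 20 checks the own letter correlated best, a hint of pairing from the data and not from the design, and not every same-letter pair was above 0.1.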
